A study of Mus musculus with 24 samples.

Results

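The genes described here are 33 mouse genes of lymphocytes and of lymph nodes, listed by symbol: 13 of B cells, 12 of T cells, 3 of cytotoxic cells, 2 of lymphocyte homing and lymphoid tissue organisation, and 3 of node vessels and stroma. Of these, 32 had a row in a gene count matrix of 39017 genes, and 31 had at least 1 count in the 24 libraries. Ighd had no row and Ccl19 was listed at 0 counts in every library. The libraries came from subcutaneous fat of the 4th mammary pad of C57BL/6 mice, flash frozen, and were made from total RNA after depletion of ribosomal RNA. Mice were on a diet labelled Chow or HFD, which the series describes as lean and obese, and each fat sample was labelled no-tumor, contralateral or peritumoral, near or far from a breast tumor. That makes 6 groups of 4 libraries: Chow no-tumor, Chow contralateral, Chow peritumoral, HFD no-tumor, HFD contralateral and HFD peritumoral. In the sample titles every peritumoral library is marked L, and every contralateral and no-tumor library R. If these letters are body sides, side and peritumoral position cannot be told apart. Sex, age, the tumor cells and the composition and length of the diets were not given in the sources used here, and neither was whether peritumoral and contralateral samples came from the same mice.

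B cells carry an antigen receptor made of membrane immunoglobulin and a signalling pair, and T cells carry a receptor coupled to the CD3 chains. Naive B and T cells enter a lymph node through high endothelial venules, whose cells make the sulfated ligands and addressins that lymphocytes bind, and then settle in follicles and T cell zones under the guidance of chemokines. The inguinal lymph node lies inside the 4th mammary fat pad of the mouse, and fat itself also holds scattered lymphocytes. The labels do not say whether the node was removed, so a piece of node and lymphocytes within the fat cannot be told apart from these data. In bulk tissue, fewer cells of a type and less RNA per cell cannot be told apart either.

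Short stretches of promoter are shown for 5 members of different roles, because these members are read together in what follows and their promoters hold motifs that were searched in every member. Letters are from RefSeq on GRCm38.p6, the assembly of mm10, written 5′ to 3′ along the gene's strand. Capitals mark the Ets core GAGGAA or the kappa-B motif (GGGA, any 4 bases, then CC) on either strand. Every window ends before the gene start of the annotation. Cd79a, the signalling chain of the B cell receptor, is shown for chr7:24897322-24897380 on the + strand. Cd3d and Cd3e, chains of the T cell receptor complex, are shown for chr9:44981706-44981785 on the + strand and chr9:45009667-45009746 on the - strand. Ltb, lymphotoxin beta, the membrane cytokine that organises lymphoid tissue, is shown for chr17:35194385-35194438 on the + strand. Madcam1, an addressin of mucosal and node venules, is shown for chr10:79664454-79664533 on the + strand.
Cd79a: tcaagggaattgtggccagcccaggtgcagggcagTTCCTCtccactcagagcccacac
Cd3d: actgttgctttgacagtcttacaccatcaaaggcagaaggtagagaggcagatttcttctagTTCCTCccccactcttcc
Cd3e: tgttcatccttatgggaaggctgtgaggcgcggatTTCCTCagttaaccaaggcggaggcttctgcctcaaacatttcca
Ltb: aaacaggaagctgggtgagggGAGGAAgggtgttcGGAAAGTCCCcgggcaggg
Madcam1: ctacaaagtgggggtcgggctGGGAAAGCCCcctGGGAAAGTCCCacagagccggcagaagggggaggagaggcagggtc

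Of the members, 23 had a promoter in the RefSeq table, 28 promoters in all. Within 250 bases upstream of the start, the Ets core was found in 9 of the 23 genes (Cd37, Cd3d, Cd3e, Cd5, Cd79a, Cd8a, Lck, Ltb and Tcf7), against 23.3% of all 32851 promoters. The kappa-B motif was found in 5 (Ccl19, Cr2, Lck, Ltb and Madcam1), against 17.6% of all promoters. Madcam1 held 3 kappa-B matches in the stretch shown, of which 2 overlap on opposite strands. The octamer ATGCAAAT was found in 0 of the 23, against 1.6% of all promoters. These counts of members are by gene, where a match in any promoter of a gene counts, and the shares are by promoter, so they are not in like units. The matches are letters in a window, and nothing about binding was measured.

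Each library held between 9130125 and 18204747 counts. Levels are in CPM, the counts of a gene scaled to a common library total, and a level below that of 3 counts (0.169 to 0.351 CPM, by library) is under the counting floor used here. As a check of the labelled tissue, Adipoq, the adipocyte hormone adiponectin, was read at 961 to 2790 CPM in all 24 libraries. Some libraries stand apart in ways that touch the members. Ttn, the giant sarcomere protein of muscle, had 2867, 1995, 44.9 and 1747 CPM in replicates 1 to 4 of Chow contralateral fat, and Csn3, kappa-casein of mammary epithelium, at 43.5 to 71.1 CPM in those libraries against 6.61 to 22.9 CPM in HFD peritumoral. Of the 31 members with counts, 19 were highest of all 24 libraries in Chow contralateral replicate 4 and 8 in HFD peritumoral replicate 2. These 2 libraries were the 2 highest for 25 of the 31. The other members (Cd8a, Gzma, Gzmb, Ighm, Madcam1 and Nkg7) had another library among their 2 highest.

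**Figure D1:**
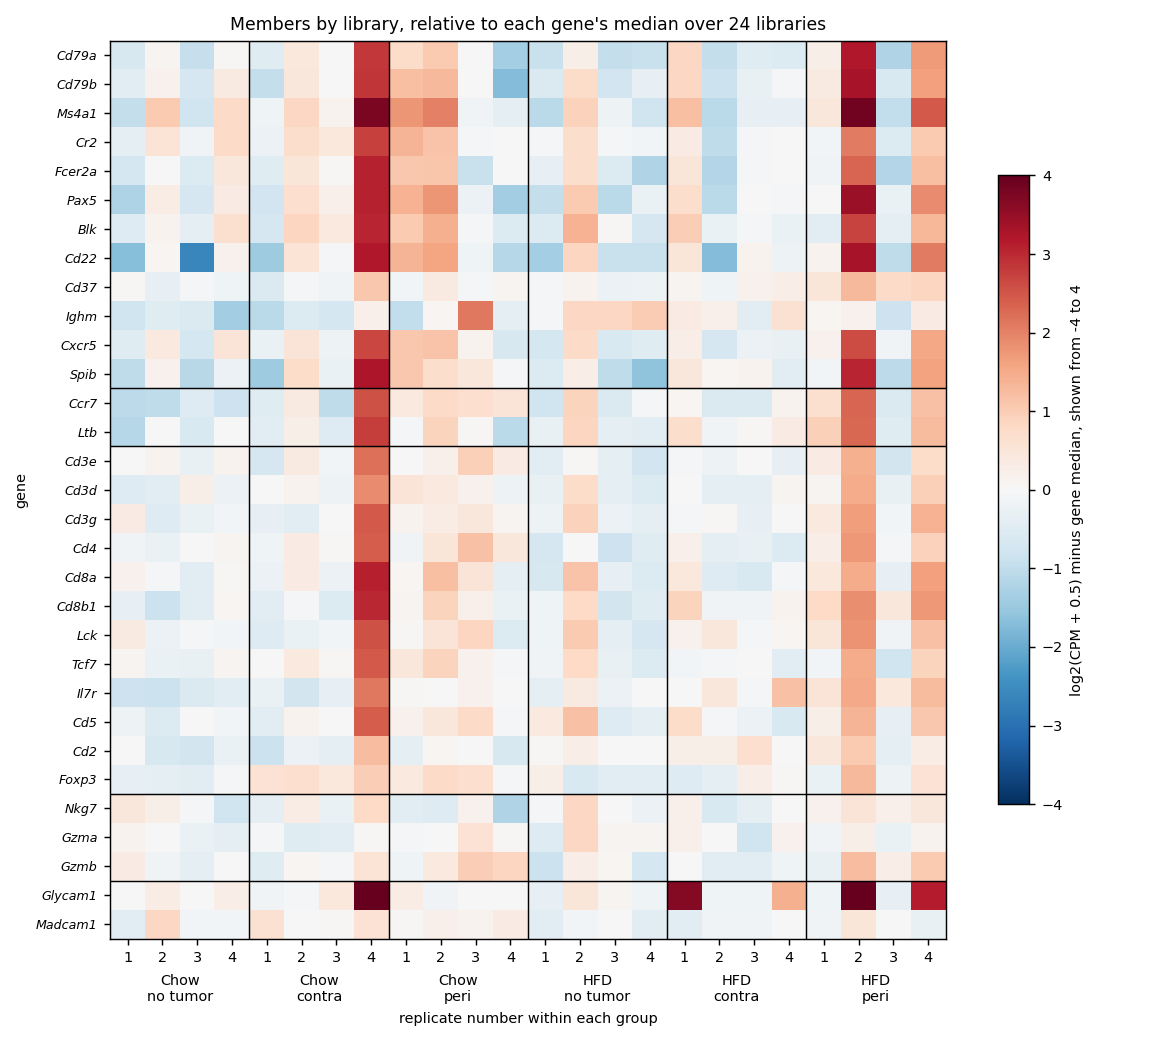
Level of the 31 members with counts (vertical axis, grouped by role) in each of the 24 libraries (horizontal axis, numbered by replicate within each group), as log2(CPM + 0.5) minus the gene's median over libraries, from -4 (blue) to 4 (red). Chow contralateral replicate 4 and HFD peritumoral replicate 2 form red columns through most B and T cell genes, while Ighm is highest in Chow peritumoral replicate 3.

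Per kilobase of exon, Ighm was the most abundant member, with a mean of 124 CPM per kb over the 24 libraries. Glycam1 followed at 7.21 CPM per kb, a mean set by a few libraries, and then Cd37 at 3.85, Cd79b at 3.65 and Cd2 at 2.57 CPM per kb. Foxp3 had 0.384 and Madcam1 0.149 CPM per kb. Most members were therefore rare transcripts in this fat, and their counts were low enough that only 20 of the 32 with a row passed the low-count filter in all 12 comparisons.

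Ms4a1 encodes CD20, a surface protein of mature B cells, and lies on mm10 chromosome 19 from 11250603 to 11266151. It was read at 0.886, 2.29, 1.23 and 20.7 CPM in Chow contralateral replicates 1 to 4. In HFD peritumoral it was read at 1.63, 22.4, 0.302 and 8.17 CPM. In Chow peritumoral it was read at 4.88, 5.88, 0.921 and 0.702 CPM. So the high libraries were replicate 4 of the first group, replicates 2 and 4 of the second and, less so, replicates 1 and 2 of the third. In HFD contralateral the values were 3.09, 0.246, 0.739 and 0.752 CPM. In the no-tumor groups they were 0.318, 2.74, 0.399 and 2.16 CPM on Chow and 0.237, 2.48, 0.856 and 0.412 CPM on HFD. Every group therefore held low and higher libraries, and the group ranges overlapped in each comparison.

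Cd79a and Cd79b, the signalling pair of the B cell receptor, followed the same libraries. Cd79a was read at 0.614, 1.62, 1.10 and 10.7 CPM in Chow contralateral and at 1.35, 14.02, 0.181 and 4.60 CPM in HFD peritumoral. Cd79b was read at 1.16, 3.91, 2.67 and 22.96 CPM in Chow contralateral and at 3.65, 31.0, 1.63 and 9.56 CPM in HFD peritumoral. In the lowest library, Chow peritumoral replicate 4, Cd79a was at 0.117 and Cd79b at 0.468 CPM. The summed level of the 11 B cell members other than Ighm (Cd79a, Cd79b, Ms4a1, Cr2, Fcer2a, Pax5, Blk, Cd22, Cd37, Cxcr5 and Spib) was 17.7, 41.5, 30.5 and 210 CPM in Chow contralateral. It was 36.1, 209, 29.4 and 89.5 CPM in HFD peritumoral and 61.4, 69.0, 28.0 and 23.3 CPM in Chow peritumoral. In the other 3 groups the sum lay between 17.3 and 47.1 CPM.

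Cr2, the complement receptor CD21 of B cells and follicular dendritic cells, was read at 3.82, 7.82, 6.31 and 33.2 CPM in Chow contralateral and at 4.22, 20.8, 2.96 and 9.86 CPM in HFD peritumoral. Pax5, the transcription factor that holds B cell identity, was read at 0.843, 13.97, 0.603 and 4.36 CPM in HFD peritumoral and at 0 to 4.04 CPM in Chow peritumoral. Blk, a kinase of the B cell receptor, stood in HFD peritumoral replicate 2 at 29.8 times the median of the other 3 libraries of that group, where Pax5 stood at 16.6 times and Ms4a1 at 13.7 times. Cd22, an inhibitory co-receptor, reached 35.4 CPM in Chow contralateral replicate 4 and 37.7 CPM in HFD peritumoral replicate 2, against 0.133 to 16.1 CPM elsewhere. Fcer2a, the low-affinity IgE receptor CD23, reached 20.8 and 11.95 CPM in the same libraries. Cxcr5, the receptor that takes B cells into follicles, was read at 0.886, 1.91, 0.960 and 10.1 CPM in Chow contralateral and at 1.41, 9.77, 1.03 and 4.42 CPM in HFD peritumoral.

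Ighm, the mu heavy chain of IgM, did not follow the other B cell genes. It was read at 76.1, 111, 99.2 and 188 CPM in Chow contralateral and at 172, 185, 92.5 and 204 CPM in HFD peritumoral. Its highest library was Chow peritumoral replicate 3 at 704 CPM, beside 81.7, 170 and 128 CPM in the other libraries of that group, and Ms4a1 in that library was at 0.921 CPM. The light chain gene Igkc (368 CPM) and Jchain, which joins IgM and IgA into polymers (48.1 CPM), were also highest there. Igkc was at 4.83 to 109 CPM and Jchain at 0.915 to 15.5 CPM in the other 23 libraries. Among the no-tumor libraries, Ighm was read at 92.6, 116, 108 and 61.3 CPM on Chow and at 156, 292, 290 and 326 CPM on HFD.

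Glycam1 and Madcam1 are products of high endothelial venules. Glycam1, a sulfated ligand of L-selectin, lies on mm10 chromosome 15 from 103562762 to 103565078 and is also known as a milk protein gene. It was read at 73.0 CPM in Chow contralateral replicate 4 and at 0.0682, 0.0954 and 0.343 CPM in the other libraries of that group. In HFD peritumoral it was read at 0.0562, 18.6, 0 and 5.08 CPM, and in HFD contralateral at 7.56, 0.0615, 0.0616 and 1.19 CPM. The other 12 libraries lay at or below 0.382 CPM. In these 3 groups the library with the most Glycam1 was also the one with the most Ms4a1, and replicate 4 came second for both genes in HFD peritumoral. In Chow peritumoral this did not hold: Ms4a1 was highest in replicate 2 (5.88 CPM), where Glycam1 was lowest of that group (0.0709 CPM). Of the milk genes, Csn2, Lalba and Wap lay at 0 to 0.619, 0 to 0.75 and 0 to 0.468 CPM over all 24 libraries. Csn3, also a milk gene, was read well above these in the libraries given earlier. Whether epithelium gave part of the Glycam1 reads was not tested. Madcam1 was read at 0 to 0.702 CPM, with the highest value in Chow no-tumor replicate 2. Of the other node genes, Ccl21a was listed at 0 in every library, and Chst4, a sulfotransferase of these venules, was at 0 in 20 of 24 libraries and highest at 0.703 CPM in Chow contralateral replicate 4. Cxcl13 and Lta were also highest in that library, but Ltbr was lowest there. Cxcl13 was second in Chow peritumoral replicate 2 at 12.97 CPM, above HFD peritumoral replicate 2 at 10.7 CPM. Fut7, Il7, Clec4g, Gpr182, Tnfrsf11a and Ltbr were each highest in some library other than Chow contralateral replicate 4.

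Ccr7, the receptor that guides lymphocytes and dendritic cells into the T cell zone, was read at 0.614, 1.53, 0.274 and 8.63 CPM in Chow contralateral. It was read at 1.58, 2.20, 2.03 and 1.75 CPM in Chow peritumoral and at 0.255, 0.281, 0.598 and 0.392 CPM in Chow no-tumor, and these last groups did not overlap. Ltb was read at 0.818, 1.62, 0.754 and 11.7 CPM in Chow contralateral and at 2.92, 8.28, 0.785 and 3.75 CPM in HFD peritumoral.

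The T cell members were highest in the same libraries, Chow contralateral replicate 4 and HFD peritumoral replicate 2, as a sum, but did not follow the B cell members in every group. Cd3e, the epsilon chain of the T cell receptor complex (mm10 chromosome 9, 44998743 to 45009590), was read at 0.341, 1.24, 0.754 and 5.63 CPM in Chow contralateral and at 1.18, 3.10, 0.302 and 1.76 CPM in HFD peritumoral. In HFD peritumoral replicate 2 it stood at 2.63 times the median of the other 3 libraries, against 13.7 times for Ms4a1. In Chow contralateral replicate 4 it stood at 7.46 times, against 16.7 times for Ms4a1. The co-receptor genes Cd8a and Cd8b1 were higher there, at 18.8 and 28.8 times. The summed level of the 12 T cell members was 16.4, 21.4, 19.1 and 120 CPM in Chow contralateral and 28.3, 70.5, 18.9 and 49.0 CPM in HFD peritumoral. It lay between 13.9 and 33.3 CPM in the other 16 libraries. In HFD contralateral it lay between 22.3 and 25.4 CPM, where the B cell sum lay between 17.3 and 43.0 CPM. In Chow peritumoral it was highest in replicate 3, at 32.2 CPM, where the B cell sum was 28.0 CPM.

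Cd4, the co-receptor of helper T cells that macrophages can also carry, was read at 2.18, 3.34, 2.61 and 15.9 CPM in Chow contralateral. It was read at 3.15, 9.60, 2.41 and 5.20 CPM in HFD peritumoral. Il7r, the interleukin 7 receptor of naive and memory T cells and innate lymphoid cells, was read at 3.82, 2.67, 3.70 and 21.9 CPM in Chow contralateral. It was at 6.97, 14.5, 6.46 and 12.04 CPM in HFD peritumoral, at 4.88, 4.75, 5.40 and 4.80 CPM in Chow peritumoral and at 4.66, 6.64, 4.56 and 11.2 CPM in HFD contralateral. In the no-tumor groups it was at 2.42, 2.39, 2.99 and 3.40 CPM on Chow and at 3.50, 6.24, 3.98 and 4.71 CPM on HFD.

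Foxp3, the transcription factor that defines regulatory T cells (mm10 chromosome X, 7579676 to 7595243), was read at 2.11, 2.29, 1.85 and 2.94 CPM in Chow contralateral and at 0.726, 0.861, 1.60 and 1.32 CPM in HFD contralateral, without overlap. In the no-tumor groups it lay at 0.797 to 1.18 CPM on Chow and at 0.637 to 1.54 CPM on HFD. In Chow peritumoral it was read at 1.79, 2.48, 2.27 and 1.17 CPM, and in HFD peritumoral at 0.956, 3.79, 1.03 and 2.12 CPM. HFD peritumoral replicate 2, the highest of all 24, stood at 3.70 times the median of the other 3 libraries of its group, and Chow contralateral replicate 4 at 1.39 times. Gzma and Gzmb, granzymes, were at 0.677 to 3.12 CPM and at 0.356 to 3.22 CPM over the 24 libraries, and the granule gene Nkg7 at 0.117 to 2.04 CPM. The sum of Gzma, Gzmb and Nkg7 lay between 1.97 and 6.67 CPM.

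**Figure D2:**
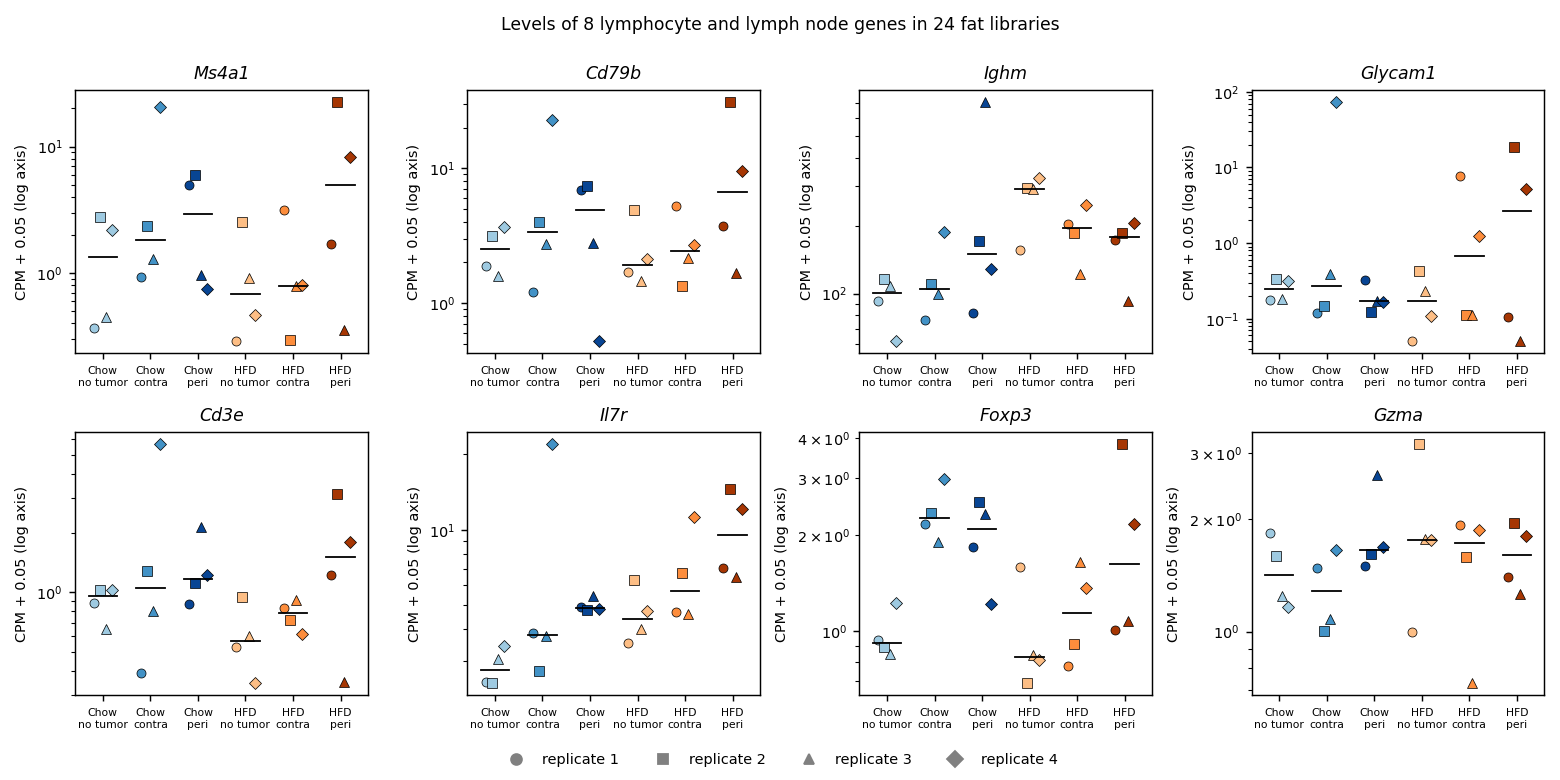
CPM + 0.05 on a log axis (vertical) of 8 members in the 6 groups (horizontal), 1 point per library with its replicate number as the marker shape and the group median as a bar. For Ms4a1, Cd79b, Glycam1 and Cd3e the 2 highest points are Chow contralateral replicate 4 and HFD peritumoral replicate 2, whereas Ighm has its highest point in Chow peritumoral replicate 3 and Gzma stays within 0.677 to 3.12 CPM.

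Across the 24 libraries, the log2 level of Ms4a1 was compared with 7 other genes, with two-sided permutation tests adjusted over the 7 by Benjamini-Hochberg. With Glycam1, Pearson's r was 0.773 (permutation p = 2e-05, adjusted 7e-05) and Spearman's rho was 0.692 (p = 0.00025, adjusted 0.00119). Most Glycam1 levels were near or under the counting floor, where differences between libraries are not resolved. Chow peritumoral replicates 1 and 2 had Ms4a1 at 4.88 and 5.88 CPM but Glycam1 at 0.275 and 0.0709 CPM. HFD contralateral replicate 1 had Ms4a1 at 3.09 CPM and Glycam1 at 7.56 CPM. With Cd3e, r was 0.769 (permutation p = 2e-05, adjusted 7e-05) and rho was 0.681 (p = 0.00034, adjusted 0.00119). Without the 2 libraries farthest from the median of Ms4a1, Chow contralateral replicate 4 and HFD peritumoral replicate 2, r was 0.556 with Glycam1 (permutation p = 0.00569) and 0.574 with Cd3e (permutation p = 0.00532). As deviations from group means, which removes differences between groups, r was 0.820 with Glycam1 and 0.719 with Cd3e. With Foxp3, r was 0.587 (permutation p = 0.00268, adjusted 0.00625) and rho was 0.440 (permutation p = 0.033, adjusted 0.0771), and without the same 2 libraries r was 0.345 (permutation p = 0.116), so that relation rests on them.

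With Ighm, r was 0.0511 (permutation p = 0.815, adjusted 0.926) and rho was 0.133 (p = 0.535, adjusted 0.624). With Nkg7, r was 0.349 (permutation p = 0.094, adjusted 0.164) and rho was 0.366 (p = 0.079, adjusted 0.138). As deviations from group means, r with Nkg7 was 0.419 (permutation p = 0.0409, adjusted 0.0573) and rho was 0.509 (p = 0.0123, adjusted 0.0287), and without those 2 libraries r was 0.329 (permutation p = 0.135). With Krt8, a keratin of mammary epithelium, r was -0.230 (permutation p = 0.279, adjusted 0.391) and rho was 0.0270 (p = 0.901, adjusted 0.901). With Adgre1, the macrophage marker F4/80, r was 0.0201 (permutation p = 0.926, adjusted 0.926) and rho was -0.150 (p = 0.480, adjusted 0.624). As such deviations, r with Adgre1 was -0.485 (permutation p = 0.0158, adjusted 0.0369), and without those 2 libraries it was -0.386 (permutation p = 0.0768).

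**Figure D3:**
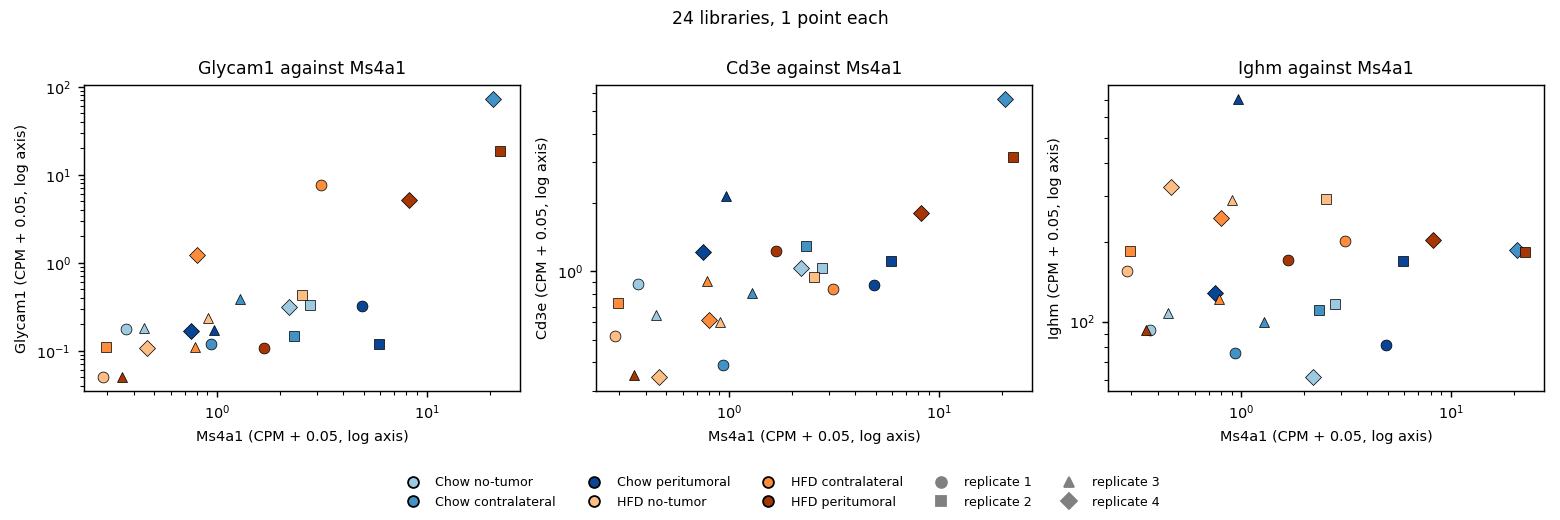
Level of Glycam1, Cd3e and Ighm (vertical axes) against that of Ms4a1 (horizontal axes), all as CPM + 0.05 on log axes, 1 point per library, coloured by group with its replicate number as the marker shape. Glycam1 (r = 0.773 on log2 CPM) and Cd3e (r = 0.769) tend to be higher where Ms4a1 is higher, which does not hold for Ighm (r = 0.0511). Most Glycam1 points lie near or under the counting floor.

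Tests between groups used edgeR's quasi-likelihood test on the libraries of the groups compared, with p-values adjusted by Benjamini-Hochberg over all genes tested and a threshold of 0.05. Nothing in the labels says that replicates are separate animals, so a p-value here reflects only how far these libraries scatter, and part of that scatter may be technical. Comparisons that use the same group share its libraries, and their values are given side by side only. A log2 fold change of 1 is a doubling, and each is given with its standard error. Of the 32 members with a row, 12 were called in at least 1 of 12 comparisons and 20 in none. The share of all genes called in at least 1 comparison was not counted, so 12 of 32 is not set against other genes. A member could pass the low-count filter through 1 group where it was high, so counts and medians over the members tested are descriptions and stand for those members alone. Shares of all genes called are at the adjusted threshold. Where members are counted at an unadjusted p under 0.05, the share of all genes at that level was not counted.

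**Figure D4:**
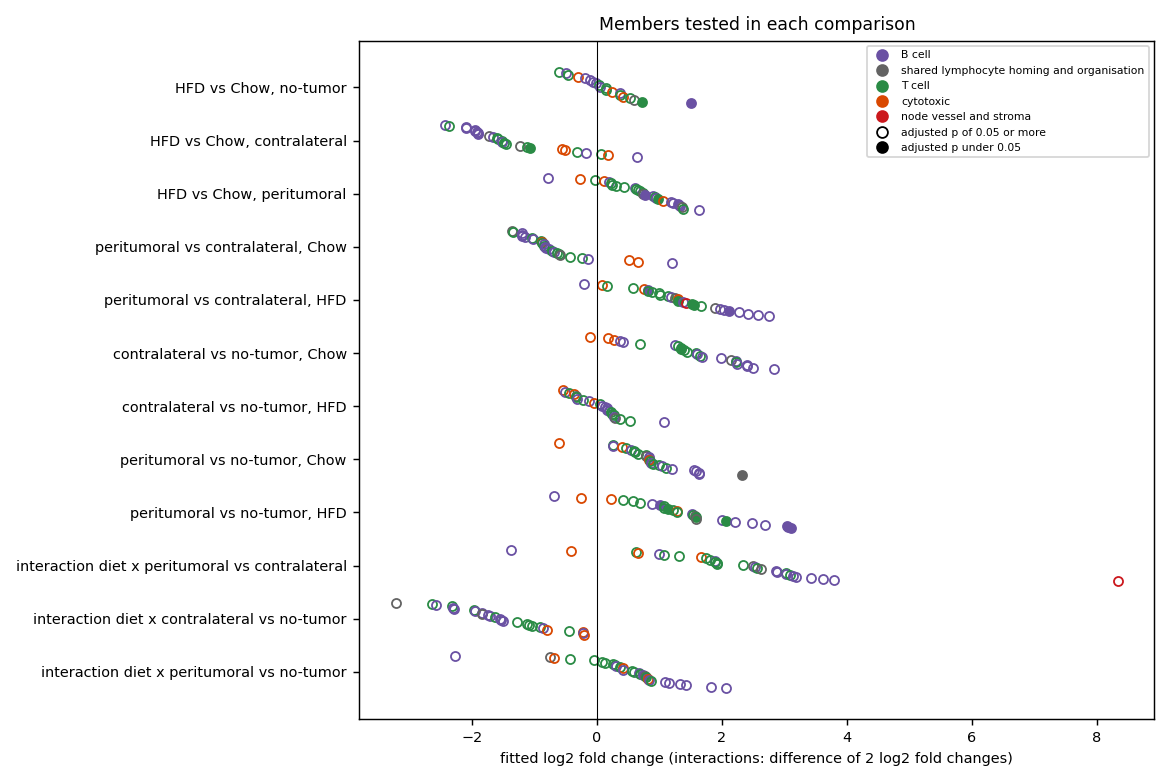
Fitted log2 fold change (horizontal axis, for interactions a difference of 2 such changes) of each member tested in each comparison (vertical axis), coloured by role and filled where the adjusted p from edgeR's quasi-likelihood test is under 0.05. Points lie mostly right of 0 in HFD peritumoral against HFD contralateral and against HFD no-tumor, and mostly left of 0 in HFD against Chow contralateral, where 1 of 27 is filled.

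The effect of diet without a tumor was read in HFD no-tumor against Chow no-tumor. Ighm rose, from 94.6 ± 24.2 to 266 ± 75.4 CPM (mean ± SD, n = 4 each), a log2 fold change of 1.5 ± 0.29 (edgeR adjusted p = 0.0107). Il7r rose from 2.80 ± 0.485 to 4.61 ± 1.20 CPM, a log2 fold change of 0.73 ± 0.20 (edgeR adjusted p = 0.0220). In both genes the 4 HFD libraries lay above the 4 Chow libraries. These were the 2 called of 20 members tested, where 24.9% of all genes were called in either direction and 27.4% had groups that did not overlap. The median log2 fold change of the members tested was 0.10, against -0.02 over all genes, and without HFD no-tumor replicate 2 it was -0.29. Leaving out 1 library at a time, Ighm had adjusted p-values of 0.00163 to 0.0362. Il7r had 0.0133 to 0.0670 and missed the threshold without Chow no-tumor replicate 1 (0.0548), HFD no-tumor replicate 2 (0.0670) or HFD no-tumor replicate 4 (0.0559). The rise of Ighm came without one of other B cell genes: Ms4a1 had -0.49 ± 0.89 (adjusted p = 0.739) and Cd79b -0.01 ± 0.43 (adjusted p = 0.992).

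The light chain did not move with Ighm in this comparison. Igkc, named here after its values were seen, had a log2 fold change of -1.07 ± 0.44 (edgeR adjusted p = 0.13). Its level over that of Ighm was 0.0423, 0.0401, 0.0167 and 0.0211 in the HFD no-tumor libraries and 0.299, 0.111, 0.140 and 0.122 in the Chow no-tumor libraries, without overlap. Over all 24 libraries this ratio ran from 0.0167 to 0.589, the highest in HFD peritumoral replicate 2, with 0.523 in Chow peritumoral replicate 3. Reads of a gene and of antisense transcripts over it cannot be told apart, because the use of strand in the counting was not given in the sources used here.

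In the contralateral fat, Foxp3 was lower on HFD: 1.13 ± 0.405 against 2.30 ± 0.464 CPM (mean ± SD, n = 4 each), a log2 fold change of -1.07 ± 0.28 (edgeR adjusted p = 0.00786). It was the 1 member called of 27 tested, where 49.3% of all genes were called and 46.2% had groups that did not overlap. With each library left out in turn, adjusted p-values were 0.00484 to 0.0260. The other 26 members tested were not called, and 1 had an unadjusted p under 0.05 in all, Foxp3 itself. The median over the members tested was -1.53, against -0.01 over all genes. Without Chow contralateral replicate 4 it was -0.08, with 12 of 27 higher on HFD in place of 3 of 27, and the called members were then Foxp3, Cd2 and Ighm. Ms4a1 had -2.43 ± 1.29 (adjusted p = 0.164). Muscle genes (4 of 5 lower) and mammary epithelial genes (7 of 8 lower) moved with this comparison, and their part in the result was not tested.

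Foxp3 shares exons with its neighbours: 267 of its 3989 exon bases with Flicr on the same strand, 373 with Ppp1r3f and 590 with Ccdc22, both on the opposite strand. Flicr, a noncoding RNA at the 5' side of Foxp3, was read at 1.5, 1.24, 1.3 and 1.34 CPM in Chow contralateral and at 0.363, 0.615, 0.616 and 0.439 CPM in HFD contralateral, a log2 fold change of -1.43 ± 0.26 (edgeR adjusted p = 0.000903). Ppp1r3f had -0.21 ± 0.20 (edgeR adjusted p = 0.395). The levels of Foxp3 and Flicr are uncertain to that extent, because how reads of shared exons were assigned was not given in the sources used here. Of the other regulatory T cell genes, 2 of 4 tested were lower on HFD, with the lowest adjusted p for Tnfrsf18 (-0.75, adjusted p = 0.00166), the receptor GITR. Il2ra, the alpha chain of the interleukin-2 receptor, had a value in the other direction, 0.49 ± 0.23 (edgeR adjusted p = 0.0975), which did not pass the test. It was read at 4.42, 4.86, 4.92 and 7.89 CPM in HFD contralateral and at 3.14, 2.86, 3.98 and 5.18 CPM in Chow contralateral.

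Foxp3 was also the 1 member called of 25 tested in Chow contralateral against Chow no-tumor, where 7.95% of all genes were called. It rose from 0.927 ± 0.170 to 2.30 ± 0.464 CPM, a log2 fold change of 1.34 ± 0.24 (edgeR adjusted p = 0.0119), without overlap between groups (7.89% of all genes were separate in that direction). Both comparisons use the same Chow contralateral libraries. Each library left out in turn gave adjusted p-values of 0.0123 to 0.0432, and a fit of all 24 libraries gave 0.0523. Flicr rose with it, by 1.17 ± 0.23 (edgeR adjusted p = 0.0177), and Ppp1r3f had 0.43 ± 0.23 (edgeR adjusted p = 0.241). Of the 4 other regulatory T cell genes tested, edgeR called 0, and 2 had an unadjusted p under 0.05. The other B and T cell members had log2 fold changes such as 2.23 ± 1.29 for Ms4a1 (adjusted p = 0.306). Their median with Foxp3 was 1.59, against -0.01 over all genes, and 0.08 without Chow contralateral replicate 4.

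In HFD contralateral against HFD no-tumor, edgeR called 0 of 24 members, DESeq2 called 0, and 0 had an unadjusted p under 0.05, where 6.08% of all genes were called. The median over the members tested was 0.11, against 0.01 over all genes. Foxp3 had 0.23 ± 0.34 (adjusted p = 0.733). The difference between diets in the change of Foxp3 from no-tumor to contralateral was -1.09 ± 0.43 (edgeR interaction, adjusted p = 0.0816) and did not pass. In that interaction edgeR called 0 of 27 members, where it called 19.9% of all genes, and DESeq2 called 1 member (Ccr7). By edgeR, 2 members had an unadjusted p under 0.05, a share not counted over all genes.

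Peritumoral against contralateral fat on Chow gave no called member: edgeR called 0 of 27, DESeq2 called 0, and 0 had an unadjusted p under 0.05, where 0% of all genes were called by edgeR. The median over the members tested was -0.83, against -0.01 over all genes, and it turned to 0.76 without Chow contralateral replicate 4, with 25 of 27 higher in peritumoral fat in place of 3 of 27. Ms4a1 had -1.03 ± 1.23 (adjusted p = 0.8) and Cd3e -0.65 ± 0.81 (adjusted p = 0.807). The direction of most members between these groups was therefore set by 1 library.

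On HFD, 6 of 28 members tested rose in peritumoral against contralateral fat, where 29.5% of all genes were called in either direction. They were Cd37, Cxcr5, Cd3g, Cd4, Cd8b1 and Gzmb. Cd37, a tetraspanin of B cells that other leukocytes also carry (mm10 chromosome 7, 45233632 to 45239115), was read at 16.4, 29.4, 20.2 and 21.2 CPM in peritumoral and at 12.6, 10.1, 12.99 and 14.03 CPM in contralateral fat. That is a log2 fold change of 0.82 ± 0.18 (edgeR adjusted p = 0.0111), without overlap (31.5% of all genes). The other 5 overlapped between groups. Cxcr5 had 2.11 ± 0.69 (adjusted p = 0.0453), Cd8b1 1.55 ± 0.52 (0.0479), Cd3g 1.51 ± 0.49 (0.0430), Cd4 1.29 ± 0.42 (0.0452) and Gzmb, a granzyme of killer cells, 1.29 ± 0.43 (0.0494).

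These 5 calls depended on the libraries in the fit. With the replicate number as a block, Cxcr5, Cd4, Cd8b1 and Gzmb were not called, while Cd8a and Il7r were. Leaving out 1 library at a time, the number of members called was 1 without HFD peritumoral replicates 2 or 4 or HFD contralateral replicates 2, 3 or 4, and 2 without HFD contralateral replicate 1. It was 9 without HFD peritumoral replicate 1 and 16 without HFD peritumoral replicate 3, the library of that group with the lowest Ms4a1. The number of all genes called moved too, from 2750 without HFD contralateral replicate 3 to 6425 without HFD peritumoral replicate 1. Cd37 had adjusted p-values of 0.00166 to 0.0324. Ms4a1 itself had 2.76 ± 1.10 (adjusted p = 0.0833) and did not pass. The median over the members tested was 1.29, against -0.02 over all genes, with 27 of 28 higher. Without HFD peritumoral replicate 2 it was 0.66, and without replicates 2 and 4, a choice made after seeing the data, it was -0.10, with 12 of 28 higher and Cd37 alone called (0.56, adjusted p = 0.0431). All 4 libraries of HFD peritumoral were high for macrophage genes, not just those with high Ms4a1: the 7 macrophage and monocyte genes summed to 1953 to 2585 CPM there and to 782 to 1635 CPM in the other 20 libraries, and 7 of 7 rose. Adgre1 was at 115, 107, 134 and 153 CPM in HFD peritumoral and at 39.1 to 90.6 CPM elsewhere. The 6 leukocyte genes of no one lineage all rose as well (6 of 6), and their part and that of macrophages in the rise of Cd37, Cd4 and Gzmb was not tested.

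Of B cell genes that are not members, 1 of 11 tested rose in the same comparison, Cd72 (1.77 ± 0.47, adjusted p = 0.0225), a B cell co-receptor that some macrophages carry. Of the 12 other T cell genes tested edgeR called 0, with 4 at an unadjusted p under 0.05. Of the other node genes, 3 of 5 rose, with the lowest adjusted p for Tnfrsf11a (0.68, adjusted p = 0.00285), the receptor RANK. Cell cycle genes rose in 5 of 5 cases. No count of these lists was compared with that of the members.

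Against HFD no-tumor, 6 of 27 members tested rose in HFD peritumoral fat, where 40.9% of all genes were called. Cd37 rose from 10.9 ± 1.36 to 21.8 ± 5.45 CPM (mean ± SD, n = 4 each), a log2 fold change of 1.01 ± 0.17 (edgeR adjusted p = 0.00195). Il7r rose from 4.61 ± 1.20 to 10.003 ± 3.94 CPM, by 1.13 ± 0.29 (edgeR adjusted p = 0.0128). These 2 did not overlap between groups (39.6% of all genes). The other 4 called were Cd79a (3.11 ± 1.04, adjusted p = 0.0373), Ms4a1 (3.05 ± 1.10, adjusted p = 0.0487), Cd8b1 (2.06 ± 0.63, adjusted p = 0.0264) and Cd4 (1.59 ± 0.43, adjusted p = 0.0169). Of the members not called, Spib, an Ets factor of B cells and plasmacytoid dendritic cells, had 3.06 (adjusted p = 0.0518), Cd79b 2.22 ± 0.81 (adjusted p = 0.0519) and Ighm -0.69 (adjusted p = 0.0640).

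The number of members called in that comparison ran from 2 to 14 when 1 library at a time was left out: 2 without HFD no-tumor replicate 3, 3 without HFD peritumoral replicates 2 or 4 or HFD no-tumor replicate 4, 4 without HFD no-tumor replicate 1, 13 without HFD peritumoral replicate 1 or HFD no-tumor replicate 2, and 14 without HFD peritumoral replicate 3. All genes called ran from 4802 without HFD no-tumor replicate 3 to 8002 without HFD peritumoral replicate 1. Ms4a1 had adjusted p-values of 0.0177 to 0.201, and without HFD peritumoral replicates 2 and 4 its log2 fold change was -0.00296 (edgeR adjusted p = 0.998). Cd37 had 0.000231 to 0.00961 when 1 library at a time was left out and Il7r 0.00549 to 0.0410. Without HFD peritumoral replicates 2 and 4 Cd37 was the 1 member called (0.76, adjusted p = 0.00304), and Il7r had 0.55 (adjusted p = 0.0836). Over the members tested the median was 1.28, against -0.01 over all genes, and 0.09 without those 2 libraries. Macrophage genes (7 of 7) and leukocyte genes of no one lineage (6 of 6) rose, and mammary epithelial genes fell (8 of 8).

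On Chow, Ccr7 was the 1 member called of 26 tested in peritumoral against no-tumor fat, where 0.132% of all genes were called. It rose from 0.381 ± 0.156 to 1.89 ± 0.274 CPM (mean ± SD, n = 4 each), a log2 fold change of 2.32 ± 0.31 (edgeR adjusted p = 0.0353), without overlap between groups (12.4% of all genes). Leaving out 1 library at a time gave adjusted p-values of 0.0330 to 0.123, over the threshold without Chow peritumoral replicates 1 (0.0740) or 3 (0.0974) or Chow no-tumor replicates 1 (0.103), 3 (0.0515) or 4 (0.123). Its fold change stayed between 2.16 and 2.61. A fit of all 24 libraries gave an adjusted p of 0.154. Il7r had 0.86 (adjusted p = 0.0680), and 8 members had an unadjusted p under 0.05, a share not counted over all genes. Members' median log2 fold change was 0.84, against 0.01 over all genes.

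Within peritumoral fat, HFD against Chow, 2 of 29 members tested were higher on HFD, where 33.6% of all genes were called. Cd37 was at 21.8 ± 5.45 CPM on HFD and 12.4 ± 1.95 CPM on Chow (mean ± SD, n = 4 each), a log2 fold change of 0.78 ± 0.18 (edgeR adjusted p = 0.0106). Il7r was at 10.003 ± 3.94 against 4.96 ± 0.301 CPM, a log2 fold change of 0.97 ± 0.26 (edgeR adjusted p = 0.0178). Neither overlapped between groups (33.3% of all genes). With single libraries left out, Cd37 had adjusted p-values of 0.00338 to 0.0428 and Il7r of 0.00700 to 0.0540, over the threshold without Chow peritumoral replicate 1 (0.0540) or HFD peritumoral replicate 4 (0.0503). Without HFD peritumoral replicates 2 and 4, 0 members were called, with 0.52 for Cd37 (edgeR adjusted p = 0.0638) and 0.39 for Il7r (adjusted p = 0.169). Members tested had a median of 0.74, against 0.02 over all genes, and -0.79 without those 2 libraries. Ms4a1 had 1.33 ± 1.16 (adjusted p = 0.407), Cd3e 0.24 ± 0.55 (adjusted p = 0.755) and Foxp3 -0.03 ± 0.43 (adjusted p = 0.968).

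Whether the change from no-tumor to peritumoral fat differed between diets was tested by an interaction. Cd37 was the 1 member called of 29, with a difference of 0.73 ± 0.23 (edgeR adjusted p = 0.0335), where 20.6% of all genes were called. Cd37 shares 4 exon bases with Tead2 on the opposite strand, which had -0.01 in HFD peritumoral against HFD no-tumor (edgeR adjusted p = 0.967). Leaving out 1 library at a time gave the Cd37 interaction 0.55 to 0.90, with adjusted p-values of 0.00741 to 0.0742 that were over the threshold without 7 of the 16 libraries, among them HFD peritumoral replicate 2 (0.0596). Ighm had -2.27 ± 0.79 (adjusted p = 0.0558), and Chow peritumoral replicate 3 is among its libraries. For the change from contralateral to peritumoral fat, edgeR called 0 of 30 members as different between diets, where it called 0% of all genes. DESeq2 called 0 members. By edgeR, 11 members had an unadjusted p under 0.05, and the share of all genes at that unadjusted threshold was not counted. The median difference over the members tested was 2.42, against 0.02 over all genes, and 0.76 without Chow contralateral replicate 4. Without that library and HFD peritumoral replicate 2 it was 0.03, so the median over members rested on these 2 libraries. Glycam1 had 8.34 ± 3.40 (adjusted p = 0.210).

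Members too low for the fit were compared by exact permutation tests, 55 in all, two-sided, where 4 libraries against 4 cannot give a p below 0.0286. Madcam1 reached that limit in HFD against Chow contralateral fat (0.109 ± 0.0785 against 0.363 ± 0.191 CPM, mean ± SD, n = 4 each, exact permutation p = 0.0286), and its value adjusted over the 55 tests was 1.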

How the data were processed

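Ribosomal RNA was depleted from total RNA of 24 fat samples before sequencing, per the labels' protocols. The authors deposited whole-number read counts per gene in 1 matrix of 39017 Ensembl genes, whose 24 columns were matched to the labels by name, with 0 columns not used. The submitters' processing notes name TopHat, DESeq and the build mm10, without versions. The strand of counting, the handling of shared reads and other filters were not given in the sources used here. Gene positions and exon lengths are those of the deposited matrix, per the file headers. A table of gene names gave symbols for 37607 gene IDs and none for 1410, and promoters are from RefSeq.

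The counts were analysed with R 4.3.3 and edgeR 4.0.16 (quasi-likelihood F test with robust dispersion, TMM scaling, filterByExpr with a minimum count of 10 and total of 15, Benjamini-Hochberg over all genes tested, threshold 0.05). Each of 9 pairwise comparisons was fitted on its 8 libraries and each of 3 interactions on its 16. CPM used TMM-scaled library sizes, and log2 CPM a prior count of 2. Libraries held between 9130125 and 18204747 counts, so 3 counts are 0.169 to 0.351 CPM, and these limits cover counting error only. Exact permutation tests were run in R. Correlations and their permutation tests used scipy 1.17.1, numpy 2.4.6 and pandas 2.3.3 in Python 3.11.15. The fits were also run on simulated counts, with the same dispersion for every gene and no outlying library. The members scatter more than that between libraries, so this run does not speak to their calls. No pair of replicates agreed within sampling noise, so each library was counted as 1 sample.

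The members and gene lists were chosen with earlier results of these data known, and the lists of other cell types were used for counts only. All members are described. Of the other lists, the text names at most the called gene with the lowest adjusted p, and Jchain, Krt8, Csn3, Ccl21a, Cxcl13 and Adgre1 as markers. Ttn, Il2ra, Igkc, the milk genes Csn2, Lalba and Wap, Chst4, Adipoq, Flicr, Ppp1r3f and Tead2 were named after their values were seen. So were the node genes Lta, Fut7, Ltbr, Il7, Clec4g and Gpr182. Alternatives were DESeq2 1.42.0, edgeR with RLE scaling, a fit without the low-count filter, a fit of all 24 libraries, the replicate number as a block, and leaving out each library. Leaving out HFD peritumoral replicates 2 and 4, or Chow contralateral replicate 4 with HFD peritumoral replicate 2, was added after seeing the data. Protein sequences were not used here.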

Additional observations from a re-analysis of the deposited data

Results flagged for a closer look

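Within groups of 4 libraries, 38 values of members stood apart from the other 3 of their group by Dixon's criterion, out of 186 group and gene combinations tested. Chance gives about 1 in 20 groups for normally distributed values only, and the criterion was applied here to untransformed CPM. All 38 were the highest value of their group. The rate over all genes was not counted, and members that vary together are not independent. So 38 of 186 is not set against 1 in 20.

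In Chow contralateral replicate 4, 24 members were far above the other 3 libraries. Of the B cell members these were Cd79a (10.7 CPM), Cd79b (22.96), Ms4a1 (20.7), Cr2 (33.2), Fcer2a (20.8), Pax5 (10.7), Blk (6.91), Cd22 (35.4), Cxcr5 (10.1) and Spib (13.7 CPM). Of the T cell members these were Cd3e (5.63 CPM), Cd3d (3.13), Cd3g (6.78), Cd4 (15.9), Cd8a (10.3), Cd8b1 (7.87), Lck (11.8), Tcf7 (17.4), Il7r (21.9), Cd5 (6.14) and Cd2 (10.5 CPM). The remaining ones were Ccr7 (8.63 CPM), Ltb (11.7 CPM) and the venule gene Glycam1 (73.0 CPM). Cd37, Ighm, Madcam1, Foxp3, Gzma, Gzmb and Nkg7 were not among them.

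In HFD no-tumor replicate 2, 9 members were far above the rest of the group: Cd79a (1.34 CPM), Cr2 (7.84), Cd22 (6.50), Cxcr5 (2.36), Cd3d (1.15), Cd3g (1.98), Cd8a (2.23), Ltb (2.74) and Nkg7 (2.04 CPM). Glycam1 was at 0.382 CPM in that library. In HFD contralateral replicate 1 these were Cd79a (2.30 CPM), Blk (1.27 CPM) and Glycam1 (7.56 CPM). In Chow peritumoral replicate 3 they were Ighm (704 CPM) and Gzma (2.58 CPM), without Ms4a1.

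The change of Cd37 from no-tumor to peritumoral fat was larger on HFD than on Chow, with a difference of 0.73 on the log2 scale (edgeR interaction, adjusted p = 0.0335).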

How the results depend on the processing

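Low counts limit most members, and 1 or 2 libraries with many lymphocyte transcripts set most medians. With RLE size factors, all 63 values compared were classed as the same as in the main fit. Counts of genes called and medians are among the values compared. These have no side of the threshold, and the class leaves room for changes in them. DESeq2 called 2 members in HFD against Chow contralateral, 4 in HFD against Chow peritumoral, 2 in Chow peritumoral against no-tumor, 13 in HFD peritumoral against no-tumor, 1 in the interaction of diet with contralateral against no-tumor and 3 in that with peritumoral against no-tumor. Without the low-count filter the members called were 3 (HFD peritumoral against contralateral), 2 (Chow peritumoral against no-tumor) and 3 (HFD peritumoral against no-tumor). With all 24 libraries in 1 fit they were 1 (HFD against Chow no-tumor), 4 (HFD against Chow contralateral), 1 (HFD against Chow peritumoral), 3 (HFD peritumoral against contralateral), 0 (Chow contralateral against no-tumor, with Foxp3 at an adjusted p of 0.0523) and 0 (Chow peritumoral against no-tumor). Without HFD peritumoral replicates 2 and 4 they were 0 in HFD against Chow peritumoral, 1 in HFD peritumoral against contralateral, 1 against no-tumor and 0 in the interaction with peritumoral against no-tumor, and Ms4a1 turned to -0.00296 (edgeR adjusted p = 0.998). The share of all genes called under each setting is not given beside these counts, so they do not set the members against other genes. The causes were not tested.

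Same-numbered replicates deviated from their group means with correlations of -0.368 to 0.322, in no comparison over 0.1 in all 4 pairs. Of the 36, 8 correlated best with their own number, but only peritumoral and contralateral samples of the same diet could share mice. On Chow those correlations were 0.0543, 0.244, -0.0140 and -0.0739 in replicates 1 to 4, with replicate 2 alone best with its own number. On HFD replicates 3 and 4 were. No label ties the numbers to mice, so they were not taken as pairs, and pairing there was not settled. With the replicate block, 17 members were called in HFD peritumoral against no-tumor, and in HFD peritumoral against contralateral 4 were (Cd37, Cd3g, Cd8a and Il7r), so Cxcr5, Cd4, Cd8b1 and Gzmb were not. The main fit called 40.9% and 29.5% of all genes in these comparisons. Shares of all genes under the block are not given, so 17 and 4 are not set against them. In HFD peritumoral against contralateral the correlations of replicates 1 to 4 were -0.111, 0.107, 0.196 and 0.322.

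Leaving out 1 library at a time, the members called ranged from 1 to 2 (HFD against Chow no-tumor), 1 to 3 (contralateral), 1 to 6 (peritumoral), 1 to 16 (HFD peritumoral against contralateral), 0 to 1 (Chow peritumoral against no-tumor), 2 to 14 (HFD peritumoral against no-tumor), 0 to 1 (interaction with contralateral against no-tumor) and 0 to 2 (interaction with peritumoral against no-tumor). In that order, all genes called ranged from 2990 to 4592, 7084 to 7555, 3102 to 6003 and 2750 to 6425. The rest ranged from 1 to 78, 4802 to 8002, 2435 to 3753 and 2258 to 4785. The correlation of Ms4a1 with Adgre1 turned from 0.0201 to -0.485 as deviations from group means (permutation adjusted p = 0.0369).

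The count of all genes called, which is the background of the members' counts, moved by over 1.5 times in several cases. In HFD against Chow peritumoral it was 5353, against 8799 when every library shared the fit. Without HFD peritumoral replicates 2 and 4 it was 2795. That pair left out also took HFD peritumoral against contralateral from 4610 to 1803 and the interaction with peritumoral against no-tumor from 3456 to 1888. In Chow contralateral against no-tumor 1268 became 692 with all libraries and 356 with the replicate block, and in HFD contralateral against no-tumor 956 became 238 and 629. The interaction with contralateral against no-tumor went from 3314 to 1556 with all libraries. In Chow peritumoral against no-tumor 21 became 641 with DESeq2, 821 with all libraries and 222 without the low-count filter. In Chow peritumoral against contralateral 0 became 14 with DESeq2 and 3 without the filter, and in the interaction with peritumoral against contralateral 0 became 726 with DESeq2, 333 with all libraries, 7 without the filter and 148 with the replicate block.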
